A study of Canis lupus familiaris with 8 samples.

Results

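Naive CD4 T cells were examined among TCRαβ+ T cells from the blood of 4 healthy Beagles. A cell was taken as a naive CD4 T cell when it had at least 1 unique molecular identifier (UMI, a tag that counts single transcripts) for CD4 and for CCR7, at least 2 for LEF1, and none for CD8A, SAMHD1 or FOXP3. Of 31909 cells that passed the quality filter, 13247 were CD4 single-positive (sp) cells, with CD4 but no CD8A, and 2473 of these met the gate. Dogs 1 to 4 gave 1076, 638, 551 and 208 such cells. The other 10774 CD4 sp cells, 2582, 2991, 2165 and 3036 per dog, served for comparison, together with 965 CD4 sp cells that had CCR7 and SAMHD1 without FOXP3 and with 337 CD8A sp cells without CD4 that met the other 4 conditions. The only female, dog 1, was 5 years old, and the males were 7 (dogs 2 and 3) and 9 years old (dog 4). The labels give no treatment, the dogs had had routine vaccinations, all T cells had been sorted with an antibody to TCRαβ, frozen, thawed together and processed in a single run, and each dog gave 1 gene expression library and 1 V(D)J library. The gene expression libraries held 26904346, 35661623, 32637367 and 32773374 UMIs from 7428, 8873, 8402 and 8422 barcodes. The dog is the replicate throughout (n = 4), and with 4 animals neither age nor sex was tested.

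Naive CD4 T cells have left the thymus but have not yet met their antigen. They circulate through lymph nodes, which they enter with the help of the chemokine receptor CCR7, and the transcription factors LEF1 and TCF7 help to keep them quiescent and able to divide later. The T cell receptor beta (TRB) chain is rearranged in the thymus before a burst of division and the alpha (TRA) chain after it, so that cells sharing a TRB rearrangement can stem from division either within the thymus or later in the periphery. On activation, CD4 T cells lower these genes and take up adhesion molecules, chemokine receptors for tissues, and the transcription factors and cytokine receptors of helper or regulatory cells.

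Libraries 1 and 4 shared 57 TRB rearrangements with identical nucleotides, whereas libraries 2 and 3 shared 1 and the other pairs none, and where the shared ones came from was not tested. These rearrangements were carried by 73 cells of dog 1, of which 1 was a naive CD4 cell, and by 1081 cells of dog 4, of which 14 were naive CD4 cells. Of the 78 clones of dog 4 with at least 10 cells, 30 were among them. Between 87 and 120 cell barcodes occurred in both libraries of a pair, and 2 of these were naive CD4 cells in dogs 1 and 2 alike. Without cells carrying a shared rearrangement the gated shares below were 29.5%, 17.6%, 20.3% and 6.57%, and no count of changed genes moved by more than 1.5 times.

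The 6 genes of the gate separated the groups by construction and are described without a test. In summed UMIs scaled to a total of 1000000 (CPM), LEF1 stood at 1037, 928, 890 and 646 CPM in naive cells of dogs 1 to 4 and at 495, 274, 214 and 182 CPM in the other CD4 cells. CCR7 averaged 455 ± 72.4 CPM (SD, n = 4) against 116 ± 27.0 CPM. SAMHD1, a hydrolase of deoxynucleotides, and FOXP3, the regulatory T cell factor, were at 0 by choice and averaged 67.7 and 21.8 CPM in the other cells. CD4 itself differed little, with 499 ± 27.0 and 538 ± 8.43 CPM. Of the 4 genes that name this cell type, TCF7 and the signalling regulator RGS10 had no part in the gate. TCF7 was detected in 79.1%, 83.9%, 82.6% and 81.7% of naive cells and in 64.2%, 59.3%, 55.3% and 53.3% of the others. RGS10 was detected in 76.9%, 65.4%, 56.6% and 35.6% of naive cells and in 43.0%, 21.8%, 19.0% and 7.61% of the others. Median depths were similar, 4006 ± 261 UMIs per naive cell and 3970 ± 211 per other cell, and both genes were detected more often in naive cells within each dog, although the naive cells of dog 4 had RGS10 less often than those of the other dogs.

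Naive cells made up 29.4% of the CD4 sp cells of dog 1 (exact Clopper-Pearson 95% interval 27.9 to 30.9%), 17.6% in dog 2 (16.4 to 18.9%), 20.3% in dog 3 (18.8 to 21.8%) and 6.41% in dog 4 (5.59 to 7.31%), a mean of 18.4 ± 9.47%. The intervals cover counting error only. Ranked by this share, dog 1 came first and dog 4 last, with dogs 2 and 3, of equal age, next to each other in between. The level of this share depended on depth and on the gate. When each cell was thinned to 2000 UMIs before gating it was 15.1%, 9.16%, 11.1% and 2.38%. The same cells without thinning gave 31.7%, 19.2%, 21.4% and 7.14%. Requiring at least 2 CCR7 UMIs gave 13.5%, 9.37%, 11.9% and 2.87%. With at least 1 or at least 3 LEF1 UMIs the mean share was 24.7% or 12.9%. Among CD8A sp cells, 9.99%, 7.43%, 5.96% and 1.28% met the other conditions of the gate.

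**Figure D1:**
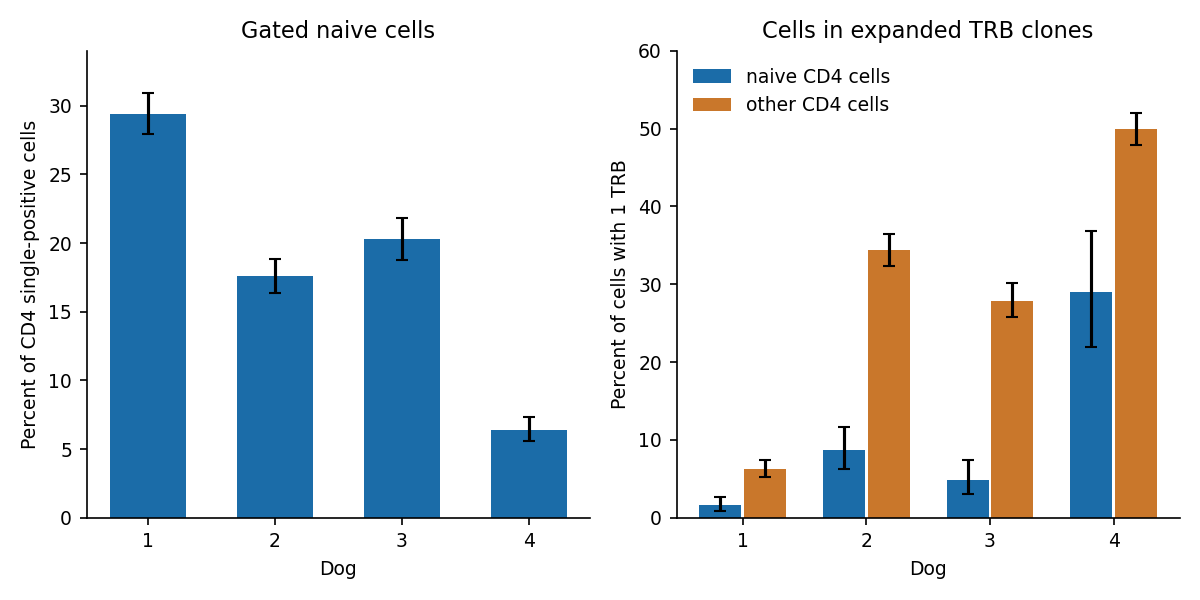
Left, the percent of CD4 single-positive cells in each dog that met the naive gate. Right, the percent of naive (blue) and other CD4 cells (orange) with 1 TRB rearrangement that belonged to a clone of at least 2 cells, with exact 95% intervals as bars; the naive bar is the lower in each dog, and dog 4 has the fewest naive cells and the highest expanded shares.

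The gate has a threshold on LEF1, so CCR7+ CD4 sp cells without SAMHD1 or FOXP3 were set side by side by their LEF1 UMIs. Mean TCF7 was 353, 429, 477 and 531 CPM in cells with 0, 1, 2 and at least 3 LEF1 UMIs. The corresponding means were 124, 207, 276 and 368 CPM for RGS10, so that cells just inside the gate lay between those just outside and those with most LEF1. The galectin LGALS1, high in memory cells, went the other way with 538, 480, 345 and 285 CPM. For the integrin chain ITGB1 the values were 142, 159, 97.9 and 101 CPM, and dogs 3 and 4 had more in the last step than in the step before. Cells with at least 2 LEF1 UMIs but no CCR7 had 409 CPM of TCF7, 229 of RGS10 and 545 of LGALS1. They numbered 820, 406, 240 and 325 in dogs 1 to 4 and are part of the other CD4 cells. Their RGS10 was at 421, 241, 217 and 38.7 CPM, so the comparison group held RGS10-expressing cells in unequal amounts between dogs.

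**Figure D2:**
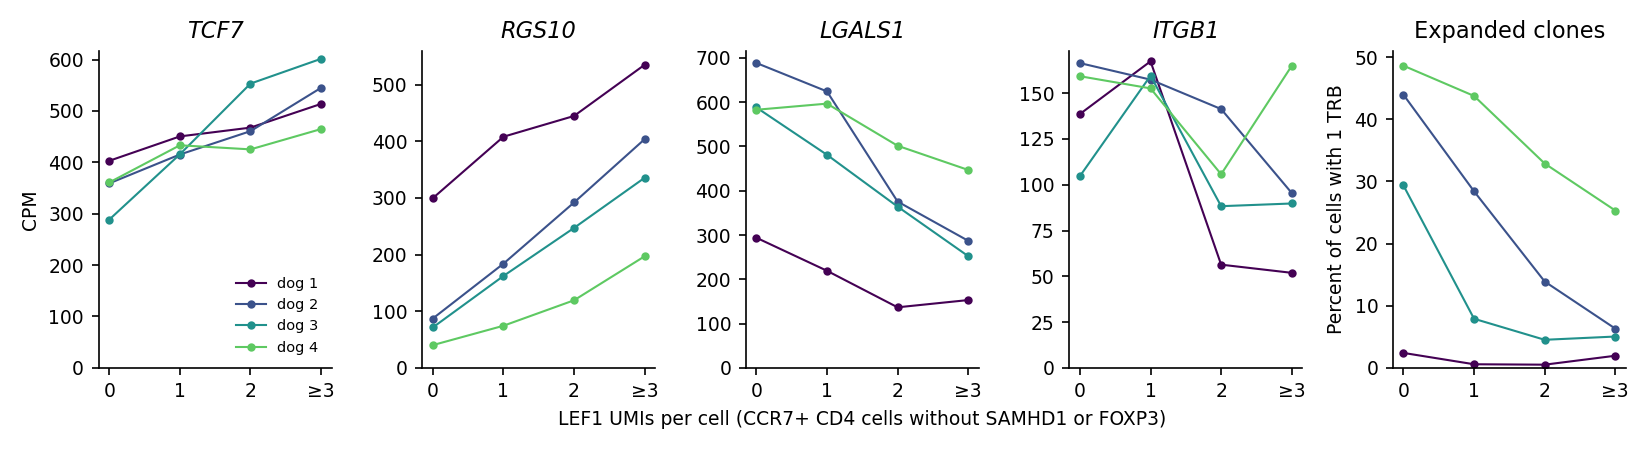
Levels of 4 genes (CPM, first 4 panels) and the percent of cells in expanded TRB clones (last panel) in CCR7+ CD4 single-positive cells without SAMHD1 or FOXP3, by LEF1 UMIs per cell, 1 line per dog; cells with 2 or more are the naive gate. TCF7 is highest at 3 or more UMIs in each dog, LGALS1 falls from 0 to 2 UMIs in dogs 1 to 3, and dogs 2 to 4 show fewer expanded cells inside the gate than at 0 UMIs.

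The V(D)J libraries are a separate readout that the gate did not use. A clone was counted as expanded when at least 2 quality-filtered cells of a dog had the same TRB nucleotide junction, V gene and J gene. Among naive cells with 1 TRB, 13 of 814, 40 of 461, 20 of 411 and 44 of 152 belonged to such clones in dogs 1 to 4, or 1.60%, 8.68%, 4.87% and 28.9%. The other CD4 cells had 6.23%, 34.4%, 27.9% and 49.9%. The share was lower in naive cells in 4 of 4 dogs, by 18.6 ± 9.50 percentage points (two-sided exact paired permutation test, p = 0.13, the smallest p that 4 dogs allow). Naive cells of dog 4 were above the other CD4 cells of dog 1, so the groups overlapped across dogs. Over the LEF1 steps of 0, 1, 2 and at least 3 UMIs the expanded share was 2.40%, 0.575%, 0.508% and 1.94% in dog 1, 43.9%, 28.4%, 13.9% and 6.31% in dog 2, 29.3%, 7.89%, 4.51% and 5.04% in dog 3 and 48.6%, 43.8%, 32.9% and 25.3% in dog 4. It was lower at each step in dogs 2 and 4, while dogs 1 and 3 were lowest at 2 UMIs.

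In most of the expanded clones a single naive cell was joined by cells outside the gate. The 13, 40, 20 and 44 cells came from 12, 37, 12 and 29 clones, of which only 1, 3, 2 and 5 held 2 or more naive cells, while 3, 29, 8 and 27 also held other CD4 cells and 0, 0, 4 and 5 held CD8A sp cells. The junctions of the largest clone with a naive cell in each dog, and of the clone of dog 1 with most naive cells, are shown as the receptors of the expanded naive cells, and all but the second were also found in cells outside the gate. They are given 5′ to 3′ as in the deposited rearrangements, with the bases between the V and J alignments (D segment and added nucleotides) in capitals.
Dog 1, TRBV18 and TRBJ1-1, 4 cells of which 1 was naive: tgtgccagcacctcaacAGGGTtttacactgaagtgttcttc
Dog 1, TRBV29 and TRBJ1-6, 2 cells, both naive: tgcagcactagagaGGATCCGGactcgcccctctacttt
Dog 2, TRBV16 and TRBJ1-6, 11 cells of which 2 were naive: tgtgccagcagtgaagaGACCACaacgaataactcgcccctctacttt
Dog 3, TRBV15 and TRBJ1-2, 86 cells of which 8 were naive: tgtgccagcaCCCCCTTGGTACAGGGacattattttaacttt
Dog 4, TRBV16 and TRBJ2-1, 83 cells of which 5 were naive: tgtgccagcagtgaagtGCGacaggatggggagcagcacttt
The clone of dog 3 had 48 other CD4 cells, 2 CD8A sp cells and 27 cells with neither transcript. Between 3 and 16 bases lay between the V and J alignments.

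Expanded naive cells were set against naive cells whose TRB was seen once, a comparison chosen after the values had been seen. RGS10 was detected in 53.8%, 15.0%, 20% and 13.6% of expanded naive cells and in 76.5%, 68.4%, 59.1% and 41.7% of those seen once, lower in 4 of 4 dogs (two-sided exact paired permutation test, p = 0.13). TCF7 was detected in 82.8 ± 13.3% and 82.5 ± 2.92%, lower in 2 of 4 dogs (exact p = 1). The expanded naive cells were deeper, with medians of 5676, 5398.5, 6205.5 and 5813.5 UMIs against 3877, 3849, 3759 and 3910. These rest on 13 to 44 expanded cells per dog.

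Gene expression was then compared between naive and other CD4 cells of the same dogs (edgeR quasi-likelihood test on UMIs summed per dog and group, dog as block, Benjamini-Hochberg adjustment over 9677 genes, threshold 0.05). As the gate rests on 6 genes of the same cells, the test says which other transcripts went with them. Of the genes tested, 1082 were higher and 1334 lower in naive cells, 25.0% in all, with 44.8% of the calls on the higher side and 32.9% when library totals alone set the scale. Without dog as a block 44 genes were higher and 128 lower, DESeq2 called 1265 genes, and 1579 were called when cells were thinned to 2000 UMIs. Leaving out dog 2 gave 1503 called genes and leaving out dog 3 gave 1592. In background rates, 11.2% of all genes tested were called higher and 13.8% lower, and the median log2 fold change was 0.01.

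Genes of naive and quiescent T cells were mostly higher in the naive cells. Of the 33 in this list, 30 were in the annotation and 25 had enough counts to be tested, of which 17 were higher and 2 lower, with a median log2 fold change of 0.33. RGS10 stood at 515, 372, 307 and 163 CPM in naive cells of dogs 1 to 4 and at 270, 107, 83.9 and 30.3 CPM in the others (log2 fold change 1.63, SE 0.12, adjusted p = 3.58e-09). The groups overlapped across dogs, because dog 1 had high and dog 4 low levels in either group, but naive cells were higher within each dog. TCF7 did not overlap, with 504, 521, 586 and 447 CPM against 369, 323, 287 and 285 CPM (0.75, SE 0.06, adjusted p = 1.02e-08).

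Other members of the list that rose were MAL, a membrane raft protein, from 3.52 ± 4.69 to 14.5 ± 10.1 CPM, BACH2, a repressor of effector programmes, from 7.42 ± 4.29 to 17.9 ± 7.73 CPM, and SATB1, a chromatin organiser, from 91.2 ± 29.4 to 149 ± 49.0 CPM. TXNIP, a brake on glucose uptake, was at 540 ± 109 against 347 ± 33.0 CPM, and CD27, a costimulatory receptor, at 216 ± 11 against 179 ± 8.25 CPM. PIK3IP1, an inhibitor of phosphoinositide 3-kinase, rose by 0.48 (SE 0.07) and the actin crosslinker ACTN1 by 0.62 (SE 0.07) on the log2 scale. The 2 members that fell were S1PR1, the receptor that guides lymphocytes out of lymph nodes, with 157 ± 11.7 against 205 ± 8.17 CPM, and the costimulatory receptor CD28, with 102 ± 26.0 against 134 ± 23.4 CPM. IL7R, the receptor chain for the survival cytokine IL-7, did not pass the test (824 ± 148 against 830 ± 145 CPM, log2 fold change 0.03, adjusted p = 0.657).

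**Figure D3:**
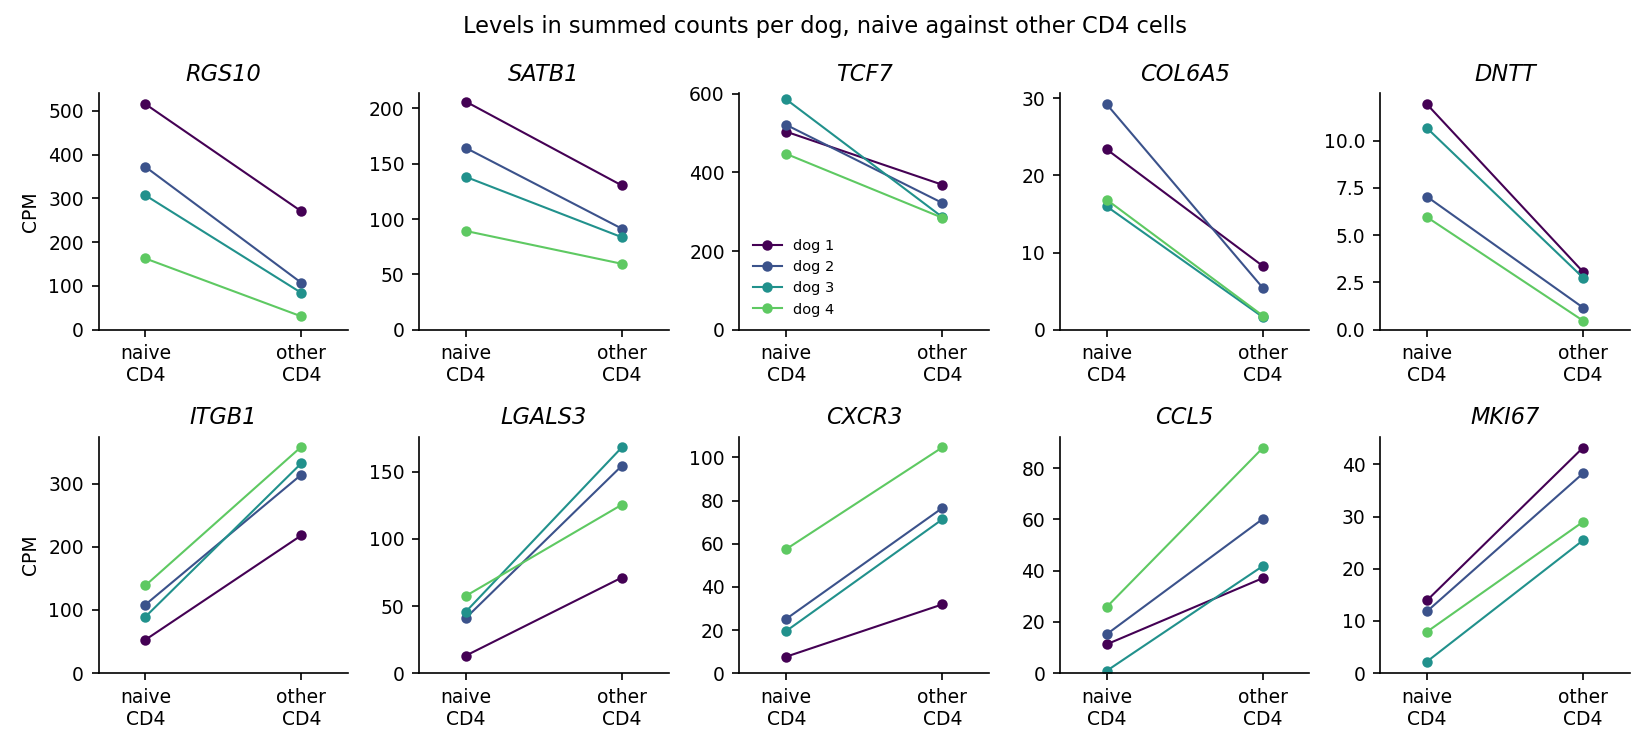
Levels (CPM, UMIs summed per dog and group) of 10 genes in naive and other CD4 cells, 1 line per dog. RGS10, SATB1, TCF7, COL6A5 and DNTT are higher, and ITGB1, LGALS3, CXCR3, CCL5 and MKI67 lower, in the naive cells of each dog.

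Among the genes with the largest increases was COL6A5, a collagen VI chain, at 23.4, 29.2, 16 and 16.9 CPM in naive cells and 8.27, 5.46, 1.65 and 1.83 CPM in the others (log2 fold change 2.31, SE 0.22). The groups did not overlap. RFLNB (56.8 ± 22.5 against 19.5 ± 12.9 CPM), FAM241A (103 ± 28.0 against 38.2 ± 22 CPM) and C8orf76 (70.8 ± 22.7 against 30.4 ± 13.7 CPM) have no well known part in T cells. CTPS1, the enzyme that makes CTP for dividing lymphocytes, averaged 131 ± 46.6 against 51.3 ± 26.8 CPM. The cyclic AMP genes PRKAR2B, a regulatory subunit of protein kinase A, and PDE3B, a phosphodiesterase, rose by 1.30 (SE 0.14) and 1.12 (SE 0.08) on the log2 scale. The protease inhibitor CSTA, the lipid transporter ATP10A and the gamma-secretase subunit PSEN2 rose by 1.26, 1.15 and 1.11. Each of these genes was higher in 4 of 4 dogs, as the rule for naming them required.

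DNTT encodes terminal transferase, which adds nucleotides to receptor junctions in the thymus. It was measured at 11.9, 7.03, 10.7 and 5.95 CPM in naive cells and at 3.06, 1.17, 2.75 and 0.478 CPM in the others (log2 fold change 2.26, SE 0.26, adjusted p = 9.46e-07), from 102 and 76 UMIs in all. The groups did not overlap. Of the 9 genes listed for recent emigrants, 4 could be tested. IKZF2, a factor of the Ikaros family that also stands in the helper and regulatory list, was lower (7.76 ± 3.48 against 26.5 ± 5.76 CPM), PTK7 and TOX did not pass the test, and RAG1 and RAG2 had no UMI in either group.

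Memory and adhesion genes were lower in naive cells: 19 of 21 tested fell and none rose, with a median log2 fold change of -0.81. ITGB1, a chain of integrins that bind matrix and vessel wall, stood at 52.8, 108, 89.3 and 139 CPM against 218, 314, 332 and 358 CPM (-1.69, SE 0.08, adjusted p = 3.68e-12). The groups did not overlap. LGALS3 averaged 39.3 ± 18.9 against 130 ± 42.9 CPM, LGALS1 305 ± 132 against 722 ± 180 CPM, the death receptor FAS 40.9 ± 11.6 against 87.7 ± 6.88 CPM, and PRDM1, the factor Blimp-1, 39.0 ± 22.6 against 96.5 ± 27.1 CPM. CD44, the hyaluronan receptor, differed least among these with 517 ± 120 against 653 ± 75.4 CPM. The members that did not pass were CD58 (log2 fold change -0.41) and TAGLN2 (-0.01). S100A5, a calcium-binding protein named by the rule of size, was abundant and fell from 1883 ± 518 to 541 ± 347 CPM.

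Receptors for homing to tissues fell in 9 of 10 cases, with a median of -1.39, and CXCR5, the follicle receptor, was the member that did not pass (-0.67). CXCR3, of type 1 helper cells, stood at 7.65, 25.2, 19.5 and 57.5 CPM in naive cells and at 31.9, 76.5, 71.3 and 105 CPM in the others. CCR4, of type 2 and skin-homing cells, averaged 4.12 ± 3.07 against 14.9 ± 4.52 CPM, and CXCR6 2.37 ± 2.06 against 12.4 ± 4.84 CPM. CCR2, outside the list, had the largest decrease among the genes named by size, from 21.7 ± 7.01 to 3.41 ± 3.06 CPM (-2.90, SE 0.25). CCR9, the gut receptor, varied between dogs in naive cells, with 3.60, 32.6, 21.8 and 83.3 CPM, and was lower than in the other cells of each dog, which had 10.7, 104, 69.4 and 116 CPM.

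Effector genes fell in 15 of 16 cases, with a median of -1.82, the exception being KLRB1 (-0.45), which did not pass. CCL5, a chemokine of cytotoxic cells, stood at 11.2, 15.2, 0.888 and 25.8 CPM in naive cells and at 37.1, 60.2, 41.8 and 87.8 CPM in the others (-2.07, SE 0.18). CCL4, KLRG1, CST7 and KLRK1 fell by 2.26, 2.03, 2.0 and 1.98 on the log2 scale, the granzyme GZMK by 1.57 and TBX21, the factor T-bet, by 1.54. Naive cells of dog 4 had more KLRG1 (25.8 CPM) and CST7 (19.8 CPM) than those of dogs 1 to 3 (2.70 to 7.77 and 3.82 to 7.11 CPM). MMP25, FABP3, GNG3 and TUBB6, a protease, a lipid carrier, a G protein subunit and a tubulin, completed the named decreases with 5.30, 4.69, 4.89 and 3.61 CPM against 23.2, 24.6, 23.4 and 21.7 CPM.

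Of 12 helper and regulatory genes, 10 fell and none rose (median -1.05). GATA3 was at 83.1 ± 7.77 against 116 ± 7.96 CPM, CTLA4 at 96.3 ± 31.8 against 141 ± 15.6 CPM, and IL2RA, the high-affinity chain for IL-2, at 4.31 ± 2.73 against 11.5 ± 1.26 CPM. BCL6 and CD40LG, with fold changes of -0.20 and -0.05, did not pass. PDCD1, an inhibitory receptor, averaged 5.02 ± 2.06 against 14.9 ± 4.75 CPM and was 1 of 2 genes lower among 4 inhibitory genes tested. Cells with FOXP3 were kept out of the naive group by choice, and part of this list is shared with regulatory cells.

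Cell cycle genes fell in 9 of 10 cases (median -1.20). MKI67, present in dividing cells, was at 13.9, 11.8, 2.22 and 7.93 CPM against 43.2, 38.3, 25.4 and 29.0 CPM, and RRM2, of ribonucleotide reductase, fell by 3.18 (SE 0.34). TYMS did not pass and was at 48.5 ± 1.58 against 47.2 ± 1.68 CPM. Interferon-induced genes fell in 10 of 13 cases (median -0.40), among them BST2, at 117 ± 73.6 against 305 ± 93.2 CPM, and ISG15, at 2.26 ± 2.61 against 9.89 ± 5.20 CPM. IFIT1 and IFI35 were among those that did not pass. Of 11 glycolysis genes 6 fell and 1 rose, GAPDH from 135 ± 27.2 to 77.2 ± 32.7 CPM. Oxidative phosphorylation genes moved little, with 4 higher and 10 lower of 56 and a median of -0.06.

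**Figure D4:**
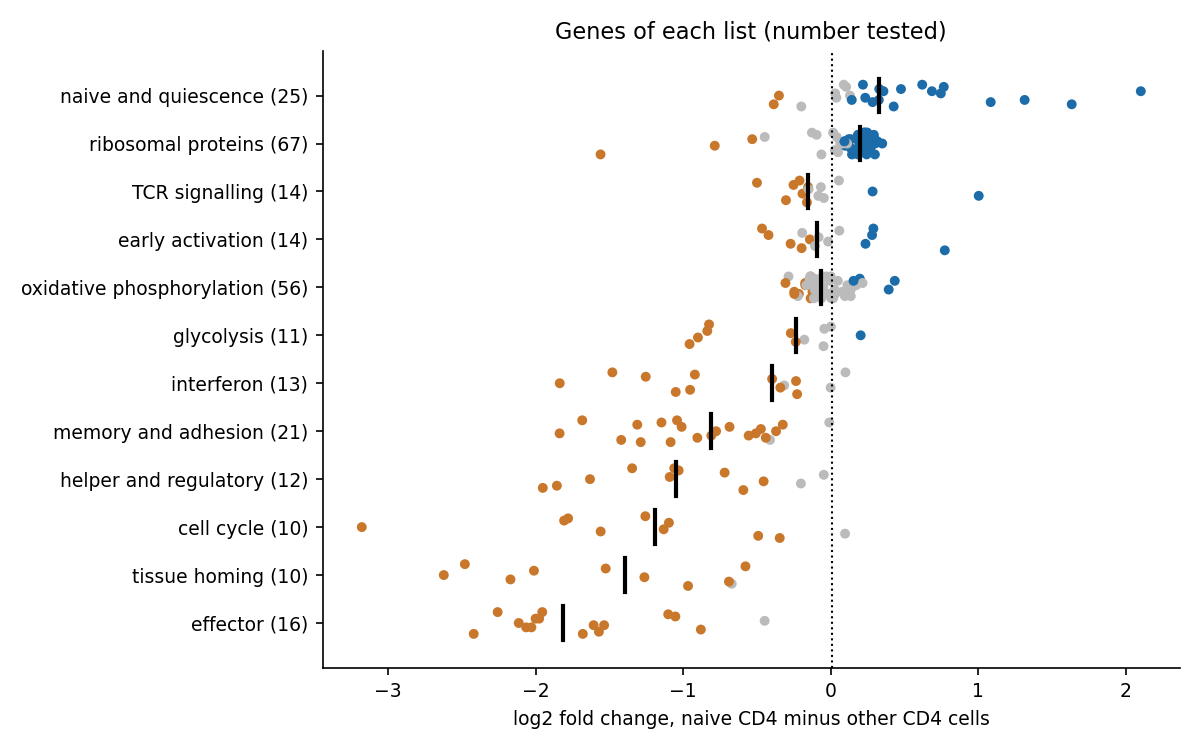
Each point is a gene of a list, placed by its log2 fold change between naive and other CD4 cells (below 0, lower in naive cells); blue and orange points passed the test as higher or lower, grey points did not. Black bars are list medians, numbers in brackets the genes tested, and the dotted line is the median of all genes tested; medians run from 0.33 for the naive list to -1.82 for the effector list.

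Most genes of the ribosome rose by a small amount. Of 67 tested whose symbol starts with RPS or RPL, 53 were higher and 3 lower, with a median log2 fold change of 0.20. These symbols take in kinase genes that encode no part of the ribosome, of which RPS6KA1, RPS6KA2 and RPS6KA3 were the 3 lower, RPS6KB1 (0.23) was among the higher, and RPS6KA5, RPS6KB2 and RPS6KC1 did not pass. RPL13 averaged 5967 ± 498 against 4998 ± 495 CPM, and RPL5 3886 ± 318 against 3143 ± 262 CPM, while RPL3 (2137 ± 49.0 against 2106 ± 75.3 CPM) did not pass. Together these genes took 26.5%, 25.0%, 25.4% and 23.2% of the UMIs of naive cells and 23.4%, 20.6%, 22.3% and 19.6% of those of the others, 3.53 ± 0.59 percentage points more in 4 of 4 dogs (two-sided exact paired permutation test, p = 0.13). The difference was 2.18 points among cells of 3000 to 6000 UMIs and 2.40 points by medians over cells. Genes detected per cell after thinning to 2000 UMIs were fewer in naive cells in 4 of 4 dogs, 953 ± 22.1 against 972 ± 22.6 (exact p = 0.13). The mitochondrial share was 2.36 ± 0.36% in naive and 2.35 ± 0.38% in other cells (exact p = 1), but by medians over cells it was 0.282 points higher in naive cells, in 4 of 4 dogs.

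Signalling genes were mixed. Of 10 cytokine receptor genes 3 rose and 4 fell. IL4R averaged 101 ± 31.7 against 62.6 ± 12.9 CPM, IL21R 125 ± 40 against 74.2 ± 23.7 CPM and TGFBR2 65.6 ± 11.7 against 48.8 ± 11.8 CPM, whereas IL2RB, shared by the IL-2 and IL-15 receptors, was at 29.9, 68.1, 63.1 and 124 CPM in naive cells and at 97.9, 204, 201 and 247 CPM in the others. Of 14 genes of T cell receptor signalling 2 rose, among them the Tec kinase TXK (92.7 ± 22.2 against 47.2 ± 20.8 CPM), and 7 fell, among them the adaptor LAT (-0.50, SE 0.09). CD3E, with 1191 ± 90.9 against 1300 ± 86.0 CPM, did not pass. Early activation genes were split as well, with 4 higher and 5 lower of 14: CD69 averaged 260 ± 48.6 against 219 ± 19.1 CPM and TNFAIP3, a brake on NF-kappaB, 158 ± 35.3 against 220 ± 34 CPM.

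Of 8 genes that the study named for its own naive CD4 clusters and had chosen on these libraries, 6 were higher and none lower, which is not independent evidence of a direction. HOMER2, KLF3 and IL7R are among those that also stand in the naive and quiescence list. IL4R is given above. NEIL1 averaged 110 ± 47.0 against 83.3 ± 33.5 CPM, TAGAP 341 ± 137 against 287 ± 98.3 CPM, KLF3 274 ± 52.8 against 244 ± 36.6 CPM and HOMER2 80.1 ± 37.2 against 68.3 ± 32.9 CPM. HOMER2 was 24.5 CPM in naive cells of dog 1 and 97.0, 96.8 and 102 CPM in dogs 2 to 4, and its call was lost when cells were thinned. KLF3 lost its call with at least 3 LEF1 UMIs or at least 2 CCR7 UMIs required. IL7R and SELPLG did not pass.

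Resting memory genes were listed for a CD4 subset of long-lived cells, with earlier results of these data known. Their direction is therefore not independent evidence. Of 6 tested, 2 rose and 2 fell against the other CD4 cells. TSPAN5 averaged 71.0 ± 19.4 against 51.8 ± 14.5 CPM, and ARID5B 36.8 ± 7.81 against 70.7 ± 6.16 CPM.

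Naive cells were also compared with the CD4 sp cells that had CCR7 and SAMHD1 transcripts but no FOXP3, in all 965 cells. Of 7634 genes tested, 202 were higher and 325 lower in naive cells, 6.90% in all (2.65% higher, 4.26% lower). The call depended on the pairing of groups by dog, since without the block 0 were higher and 2 lower, and 1390 had an unadjusted p under the threshold with it. DESeq2 called 41 higher and 67 lower. Thinning to 2000 UMIs left 230 called genes, cells of 3000 to 6000 UMIs gave 276, and gates of 1 LEF1 or 2 CCR7 UMIs gave 263 and 310. Leaving out dogs 1, 2, 3 or 4 in turn gave 271, 236, 314 and 740 called genes. Cells with SAMHD1 had median depths of 4436.5, 4387, 4458.5 and 4792.5 UMIs, above those of naive cells (3889, 3925, 3819 and 4391.5).

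Against this group, naive cells had more RGS10 (515, 372, 307 and 163 against 284, 213, 161 and 114 CPM, log2 fold change 0.83, SE 0.06, adjusted p = 2.56e-11) and more TXNIP (540 ± 109 against 330 ± 54.3 CPM). TCF7 (515 ± 57.1 against 451 ± 28.1 CPM) rose by 0.20 on the log2 scale, but its call was lost without dog 2 (0.23) or dog 3 (0.12). Of 24 naive and quiescence genes tested, 9 rose and 3 fell. SSBP2, a DNA-binding protein, was at 36.2, 55.1, 44.9 and 44.6 CPM against 7.97, 26.7, 26.9 and 23.5 CPM, with no overlap. PRKAR2B, C8orf76, FAM241A, CTPS1, KIF16B and RFLNB rose by 0.80 to 1.06. The calls for COL6A5 (1.33; 0.96 without dog 2), LPIN1 (0.81; 0.79 without dog 2 and 0.60 without dog 3), TMEM39B (0.82; 0.84 without dog 2 and 0.77 without dog 3) and CCDC167 (0.79; 0.51 without dog 1) were lost without those dogs.

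Genes called lower than in SAMHD1+ CCR7+ cells included 2 of 5 cell cycle, 6 of 14 early activation, 5 of 11 interferon and 4 of 11 glycolysis genes. MKI67 was at 13.9, 11.8, 2.22 and 7.93 CPM against 52.8, 21.6, 24.8 and 41.4 CPM, the thymidine kinase TK1 at 6.62 ± 1.06 against 24.7 ± 12.5 CPM, and TUBB6 at 3.61 ± 2.20 against 23.5 ± 3.19 CPM. Of 6 resting memory genes 5 fell: ARID5B by 1.15, SELENOP, a selenium carrier, by 1.17, the inhibitor of E proteins ID3 by 0.58, the keratin KRT18 by 0.49 and RGS1 by 0.26. The last call was lost without dog 1 (-0.19) or dog 2 (-0.20), and TSPAN5 did not pass (-0.12). As this list was chosen with earlier results of these data known, its direction here is not independent evidence. Helper and regulatory genes fell in 8 of 10 cases, among them CTLA4 (96.3 ± 31.8 against 155 ± 33.4 CPM), ICOS (92.5 ± 43.1 against 139 ± 30.1 CPM), IKZF2 (7.76 ± 3.48 against 20.1 ± 7.65 CPM) and TNFRSF18 (12.6 ± 6.08 against 29.7 ± 6.19 CPM), whose call was lost when cells were thinned. TOX2, of follicular helper cells, averaged 7.33 ± 4.37 against 24.7 ± 3.71 CPM. NEK6, TRIB1 and JDP2 fell by 1.20 to 1.26, and the call for NEK6 was lost when 2 CCR7 UMIs were required.

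Memory and adhesion genes fell in 13 of 20 cases in this comparison, ITGB1 by 0.84 (SE 0.08) and LGALS1 by 0.67 (SE 0.06), while LGALS3 did not pass (-0.34). The 9 effector genes tested had a median of 0.02. Genes with RPS or RPL symbols were higher in 16 and lower in 2 of 66. The expanded clone share of the SAMHD1+ CCR7+ cells was 2.65%, 7.00%, 4.17% and 19.0%, next to 1.60%, 8.68%, 4.87% and 28.9% in naive cells, a difference of 2.81 ± 4.86 points, higher in 3 of 4 naive groups (two-sided exact paired permutation test, p = 0.375). Without dog 4 the difference was 0.440 points.

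Receptor gene use of naive CD4 cells was close to that of the other CD4 cells of the same dogs at this depth. V and J genes of the TRA and TRB loci were tested as numbers of rearrangements. Of 95 tested, 0 passed (edgeR, 0% of those tested), 4 had an unadjusted p under the threshold, and no other tool was run. The smallest adjusted p was that of TRAJ44, used in 0.649%, 1.35%, 1.17% and 1.94% of naive and in 2.04%, 3.69%, 2.30% and 1.96% of other TRA rearrangements (log2 fold change -1.22, SE 0.36, adjusted p = 0.0742). It was lower in 4 of 4 dogs, and without dog 4 it passed (-1.37). Junction lengths were alike, 13.49 ± 0.12 against 13.52 ± 0.07 residues for TRA (two-sided exact paired permutation test, p = 0.75) and 14.41 ± 0.07 against 14.35 ± 0.07 for TRB (exact p = 0.25). Cells with 2 or more TRA rearrangements were counted after the data had been seen, as a share of cells with at least 1 TRA. They made up 8.72 ± 2.06% of naive and 6.77 ± 0.80% of other CD4 cells, higher in 4 of 4 dogs (exact p = 0.13). The difference of 1.96 points was 1.19 points without dog 3. Cells with more than 1 TRB, which include doublets, made up 5.30 ± 0.68% and 3.47 ± 0.68%.

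CD8A sp cells that met the same gate, 69, 106, 136 and 26 per dog, were compared next. Of 6562 genes, 150 were higher and 212 lower in naive CD4 cells, 5.52% in all (2.29% higher, 3.23% lower). With library totals alone as the scale 216 were higher and 132 lower, a share of calls on the higher side of 62.1% in place of 41.4%. Without dog as a block the counts were 26 and 43. DESeq2 called 179 genes, thinning to 2000 UMIs left 176 and requiring 2 CCR7 UMIs 187, and 200 or 183 genes were called without dog 2 or dog 3. Dog 4 had only 26 such cells. Their transcripts were not those of naive cells alone: GZMB stood at 119, 76, 182 and 357 CPM in the gated CD8A cells and at 2.02, 3.33, 4.00 and 9.92 CPM in naive CD4 cells, FCER1G at 19.3, 24.1, 39.9 and 97.3 against 0.450, 1.85, 2.22 and 0.992 CPM, and CTSW, a cathepsin of cytotoxic cells, at 301 ± 45.2 against 18.8 ± 11.1 CPM. The groups did not overlap for these 3 genes.

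Effector genes were lower in naive CD4 cells in 9 of 11 cases, with a median of -2.71. The log2 fold change was -5.34 for GZMB, -5.13 for KLRD1, -4.68 for NCR3, -4.64 for FCER1G, -4.36 for CCL5, -3.97 for CCL4, -3.08 for GZMK and -2.71 for KLRK1, which encode granzymes, chemokines and receptors of cytotoxic and natural killer cells. DLA-DOA, a chain of a class II accessory molecule, averaged 9.06 ± 2.95 against 91.4 ± 24.9 CPM, and GCNA and APP fell by 2.65 and 2.47. IL2RB was at 71.3 ± 39.0 against 220 ± 53.9 CPM.

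Higher in naive CD4 than in gated CD8A cells was CD40LG, the ligand with which helper cells activate B cells, at 72.2, 79.6, 79.1 and 99.2 CPM against 22.5, 7.41, 17.5 and 48.7 CPM (2.02, SE 0.23, adjusted p = 1.07e-10). The cytokine receptors IL4R (101 ± 31.7 against 26.0 ± 11.1 CPM) and IL21R (125 ± 40 against 41.1 ± 8.17 CPM) rose likewise, IL2RG by 0.45, and 4 of 8 receptors rose in all. CD52, a surface glycoprotein, was at 290 ± 45.4 against 102 ± 26.3 CPM. SERPINB1, CDH1, ZC3H12D, CTTNBP2NL and TIAM1 rose by 1.45 to 1.68. GATA3, at 83.1 ± 7.77 against 43.3 ± 5.65 CPM, was 1 of 3 helper genes that rose among 5 tested, and its call was lost among cells of 3000 to 6000 UMIs (0.65). The call for IL6R (1.30) was lost when cells were thinned, that for COL6A5 (1.51) without dog 2 (0.97) and that for TNFSF13B (1.47) without dog 3 (1.26).

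RGS10, called lower in naive CD4 cells (-0.28), lost this call without dog 2, 3 or 4, and TCF7, called higher by 0.34, lost it without dog 3. Genes with RPS or RPL symbols were lower in 25 of 64 cases and higher in 1, with a median of -0.13. Of 24 naive and quiescence genes 4 were higher and 2 lower, and of 18 memory and adhesion genes 5 were higher and 2 lower.

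Receptor genes did separate naive CD4 from gated CD8A cells. Of 81 V and J genes tested, 6 passed (7.41%), 5 lower and 1 higher in naive CD4 cells. TRBV1 was used in 6.07%, 6.63%, 6.87% and 7.14% of TRB rearrangements of naive CD4 cells and in 15.6%, 22.8%, 15.9% and 15.0% of those of gated CD8A cells (log2 fold change -1.43, SE 0.34, adjusted p = 0.000977). TRAV24 was used in 2.55 ± 0.68% against 12 ± 5.44% of TRA rearrangements. TRAV9-11 was lower in 3 of 4 dogs, with 2.99%, 2.26%, 3.50% and 0.645% against 13.2%, 11.2%, 13.6% and 0 of the rearrangements of dog 4, which had 16 cells with 1 TRA. TRAJ28 (2.38 ± 1.17% against 8.44 ± 4.46%) lost its call without dog 1 (-1.22), and TRBV15 (4.21 ± 0.94% against 9.18 ± 4.78%) lost it without dog 1 (-0.99) or dog 2 (-1.01). TRBV3-2, used in 8.34 ± 1.26% against 2.77 ± 1.84%, was higher in 4 of 4 dogs and lost its call without dog 1 (1.77) or dog 2 (1.36). TRAV9-10 passed without dog 2 and TRAV9-9 without dog 3. With cells of 1 TRA and 1 TRB alone, 3 genes passed. In the comparison with the other CD4 cells, TRBV1 had 6.68 ± 0.46% against 5.37 ± 0.76% and did not pass.

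**Figure D5:**
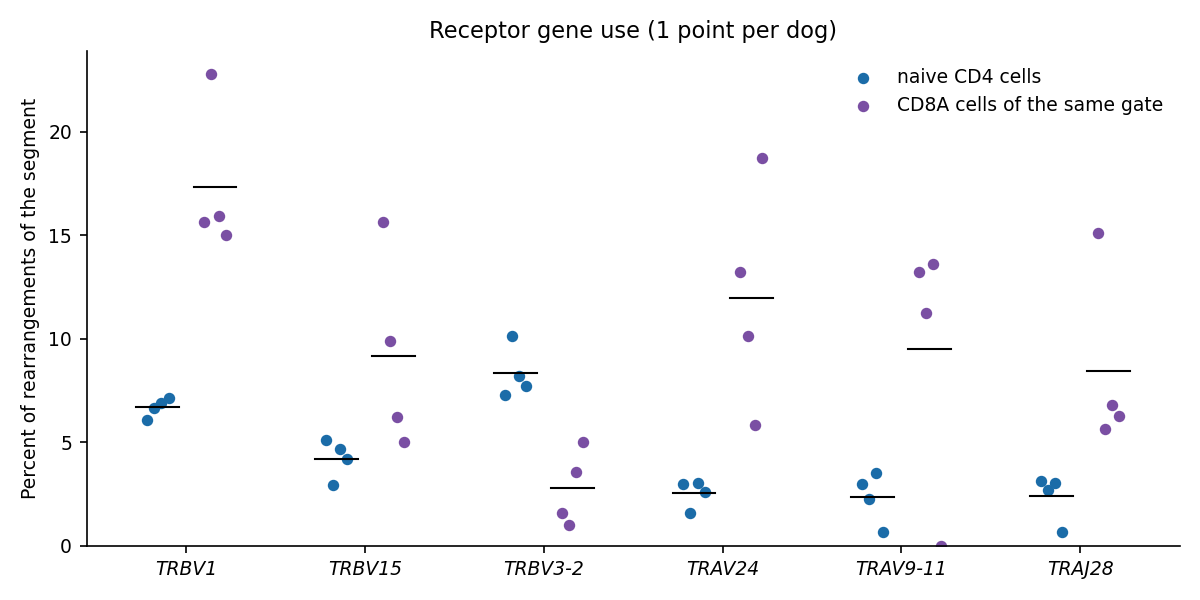
Share of the rearrangements of a segment (percent) that used each of 6 V or J genes in naive CD4 cells (blue) and in CD8A single-positive cells of the same gate (purple), 1 point per dog, bars for the mean. TRBV1 and TRAV24 are lower and TRBV3-2 is higher in naive CD4 cells of each dog, and the purple point of TRAV9-11 at 0 is dog 4.

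Junction lengths were set against those of the gated CD8A cells, a comparison chosen after the data had been seen. TRB junctions were shorter in naive CD4 cells in 4 of 4 dogs, 14.4 ± 0.07 against 15.0 ± 0.15 residues (two-sided exact paired permutation test, p = 0.13). TRA junctions had 13.5 ± 0.12 and 13.6 ± 0.20 residues (exact p = 0.75). Expanded clones held 5.56%, 10.6%, 10.5% and 6.25% of the gated CD8A cells with 1 TRB, with wide intervals in dog 4 (0.158 to 30.2%).

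Naive cells differed between dogs, which is described without a test because each dog is a single animal. The genes with the largest ratios of the highest to the lowest dog included IL12RB2, a chain of the IL-12 receptor, at 0.900, 13.7, 4.44 and 82.3 CPM in dogs 1 to 4. In the other CD4 cells it was at 5.72, 49.8, 31.4 and 73.4 CPM, so that dog 4 alone had more in naive than in other cells. Its lower level in naive cells (log2 fold change -1.10) lost the call without dog 2 (-0.75). LMNA, the nuclear lamin A, was at 5.85, 28.5, 27.1 and 76.4 CPM, the myosin MYO1F at 6.07, 27.8, 22.7 and 86.3 CPM, and TSPAN13 at 2.70, 7.40, 4.89 and 29.8 CPM, each highest in dog 4. Among the other CD4 cells dog 4 was also highest for MYO1F (115 CPM) and TSPAN13 (29.1 CPM), and dog 3 for LMNA (109.9 CPM). IL12RB1 was at 0.450, 2.22, 6.66 and 32.7 CPM, of which the value of dog 1 lies under the limit of 3 counts (0.675 CPM). CALY was highest in dogs 2 and 3 (57.7 and 71.5 CPM, against 3.60 and 12.9 CPM in dogs 1 and 4), and the other CD4 cells of dogs 1 to 4 had the same order with 6.03, 72.0, 76.2 and 9.80 CPM. The counts behind dog 4 are the fewest, 1008336 UMIs in its naive cells against 4446842 in those of dog 1.

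Markers of other cells were looked up in the same sums. The B cell list was carried by CD79A, at 11420, 10924, 10728 and 10138 CPM in naive cells and 10130, 9056, 9545 and 9137 CPM in the others, called higher by 0.23. The other 4 B cell genes together averaged 4.61 CPM in naive and 5.81 CPM in other cells, and PAX5 was at 0 in both. The myeloid list was carried by S100A8, at 458, 966, 1028 and 2048 CPM in naive and 1554, 2608, 2770 and 2988 CPM in other cells, lower by 1.25 on the log2 scale, and its remaining genes together averaged 0.296 CPM in naive and 1.95 CPM in other cells. CSF1R and S100A12 were at 0 in both groups and CD68 in naive cells. In naive cells NK cell genes were seen in dog 1 alone (2.92 CPM, NCAM1), with NCR1 and KLRF1 at 0. In the other CD4 cells they summed to 0.817 CPM in dog 1 and 0.220 CPM in dog 3, with KLRF1 at 0. Platelet genes summed to at most 2.98 CPM in either group, and ALAS2 of red cells was at 0 in both. The gene listed for gamma delta T cells was not found in the annotation. After thinning, naive cells of dogs 1 to 4 averaged 23.0, 22.1, 21.5 and 20.5 CD79A UMIs per cell. The variance of CD79A across these cells was 1.53, 1.88, 1.85 and 2.15 times the mean. For S100A8 it was 4.16, 4.33, 5.35 and 4.16 times the mean. The part of other cell types, of free RNA or of overlapping genes in the levels of CD79A and S100A8 was not tested.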

How the data were processed

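Blood TCRαβ+ T cells of 4 Beagles were profiled by 10x 5′ single-cell RNA and V(D)J sequencing. Gene expression was deposited as raw counts of UMIs for each gene in each barcode (Cell Ranger 5.0.1 per the submitters' notes, CanFam 3.1) and rearrangement lists with the count of UMIs per contig. The V and J gene set and the strand setting are not given in the sources used here, so overlapping or near-identical genes may share counts. The gene list of dog 1 (27980 entries) did not match its matrix of 20257 genes, and the list of the other dogs was used (row totals correlated with dogs 2 to 4 at 0.991, 0.990 and 0.989 across genes). Cells with 500 to 20000 UMIs and at most 10% mitochondrial UMIs (13 genes) were kept, 7096, 8454, 8109 and 8250 per dog, with medians of 3599, 3931.5, 3795 and 3847 UMIs each. No doublet filter was applied, and an alternative left out cells with more than 1 TRB.

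Counts were summed per dog and group, and tested with edgeR 4.0.16 (R 4.3.3, TMM, filterByExpr, glmQLFTest, Benjamini-Hochberg threshold 0.05) with dog as a block, since both sums of a dog come from 1 animal and library. The 6 gate genes stayed in library sizes but were not tested. V and J genes were tested likewise as numbers of rearrangements. Single values were compared by exact paired permutation over dogs. Named genes were, per comparison and direction, the 12 with the largest fold change among those called, the same way in 4 of 4 dogs and with at least 20 CPM in the higher group, leaving out receptor genes and 34 duplicated symbols, plus genes of the lists. The members, lists and rules were chosen with earlier results of these data known. Alternatives were DESeq2 1.42.0, other filters, depths and gates, and leaving out each dog. Thinning drew UMIs without replacement (NumPy 2.4.6). The edgeR step was tested on simulated counts. Some named genes and 1 clone that these rules chose are not reported here.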

Additional observations from a re-analysis of the deposited data

Results flagged for a closer look

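Among 144 sets of 4 dogs looked at, 12 had a dog far from the others, where its gap to the nearest dog took more of the group's range than Dixon's 95% critical value. Chance alone gives about 1 in 20. Most concern naive CD4 cells of dog 4, which had the fewest such cells. IL21R stood at 65.5 CPM in it (140 to 149 in the other dogs), GAPDH at 126 CPM (58.1 to 65.3), GNG3 at 12.9 CPM (1.57 to 3.33), IL12RB2 at 82.3 CPM (0.900 to 13.7), ICOS at 157 CPM (63.9 to 77.3), TRIB1 at 16.9 CPM (9.22 to 9.99) and NCR3 at 3.97 CPM (0.370 to 0.888). NCR3 rests on 10 UMIs in all, and dogs 1 to 3 lie at or under the limit of 3 counts (0.675, 1.11 and 1.33 CPM). In dog 3 CD69 was at 332 CPM (226 to 242) and RGS1 at 761 CPM (412 to 464). In dog 1 HOMER2 was at 24.5 CPM (96.8 to 102). Among the other CD4 cells, the median depth of dog 1 was 3656.5 UMIs (4041 to 4115), and the mean TRA junction of dog 3 had 13.6 residues (13.47 to 13.49).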

How the results depend on the processing

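The counts of called genes depended on the fit. Without the replicate block, 172, 2 and 69 genes passed against other CD4, SAMHD1+ CCR7+ CD4 and gated CD8A cells (main 2416, 527 and 362), and most named genes lost their call, while 0 and 9 V and J genes passed. DESeq2 called 1265, 108 and 179, and thinning to 2000 UMIs left 1579, 230 and 176. For SAMHD1+ CCR7+ cells 3000 to 6000 UMIs gave 276, 1 LEF1 UMI 263 and 2 CCR7 UMIs 310, which gave 187 for gated CD8A cells. With 1 TRA and 1 TRB alone, 3 V and J genes passed against gated CD8A cells.

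Leaving out 1 dog gave 1503 to 2562, 236 to 740 and 183 to 365 genes, 0 to 1 and 4 to 7 V and J genes, TRA length differences of -0.0688 to 0.0283 residues and mitochondrial differences of -0.0158 to 0.0828 points. Expanded clone differences ran from -23.2 to -16.2 points, and from -19.1 to -13.0 under other clone rules. Against gated CD8A cells, leaving out 1 dog was added after seeing the data and gave TRA length differences of -0.128 to 0.00920 residues and expanded clone differences of -3.83 to 5.61 points. The naive share averaged 14.8 to 22.4% with 1 dog left out, 9.42% when thinned before gating and 9.42% with 2 CCR7 UMIs.

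Of 1403, 498 and 425 values of named genes under the alternatives, 1331, 434 and 381 kept direction and call, 57, 62 and 44 lost the call and 5, 2 and 0 gained it. Signs turned in 10, none of them called: IL7R with 3 LEF1 UMIs (-0.0304), without SAMHD1 or FOXP3 in the other cells (-0.0941) and without TMM (-0.0135), TOX when thinned (0.0108), TAGLN2 without dog 2 (0.00759, range with 1 dog left out -0.0318 to 0.00759), BCL6 with 2 CCR7 UMIs (0.195) and without SAMHD1 or FOXP3 in the others (0.0314), and CD40LG without dog 1 (0.00797, range -0.0830 to 0.00797), when thinned (0.0222) and with 1 LEF1 UMI (0.0272). For 29 values DESeq2 gave no adjusted p. With 4 dogs no exact test could reach the threshold, and the 208 naive cells of dog 4 limit its low genes.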
